A study of Mus musculus with 6 samples.

Results

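The miR-15/16 family, taken here with miR-195 and miR-497, held 9 of the 778 mature miRNAs measured in mouse primary mesangial cells with and without TGF-β1. Its members were chosen by name as every row of the hairpins miR-15a, miR-15b, miR-16, miR-195 and miR-497, from either arm. No measured value entered this rule, though earlier results of these data were known when it was made. The locus 15a/16-1 gave 3 members, the locus 15b/16-2 gave 3, the locus of miR-195 and miR-497 gave 2, and miR-16-5p is the same sequence from both miR-16 hairpins. The strands of miR-322 and miR-503, which carry a related seed, were kept outside the family and are described beside it.

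Mesangial cells hold the capillary loops of the glomerulus together and can contract, and TGF-β1 is a cytokine that promotes scarring of the kidney. The TGF-β1 group held 3 libraries of cells given the cytokine at 10 ng/ml for 72 h, and the Control group held 3 libraries of cells without it. Cells of both groups were grown in 25.5 mM glucose and 20% fetal bovine serum and used at passages 3 to 6, so high glucose and serum were common to Control and treated cells. Total RNA was sequenced for miRNAs. The methods say that each group was collected in triplicate and do not state whether the miRNA libraries came from separate cultures, so the p-values measure the spread between these libraries, which may be technical. In bulk RNA, fewer cells that express a miRNA and less of it per cell cannot be told apart.

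The miR-15/16 family is best known as a brake on cell growth. Its 5p strands load into Argonaute and repress mRNAs with matching sites, among them those of Bcl2, which keeps cells alive, and of cyclins and cyclin-dependent kinases, which drive the cell cycle. The locus 15a/16-1 lies in a long noncoding RNA gene, Dleu2, and its human counterpart is deleted in many chronic lymphocytic leukemias. miR-16-5p is also widely used as a reference in PCR assays of miRNAs.

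The 5p strands are shown first, because their bases 2 to 8, the seed that pairs with target mRNAs, define the family. Sequences are mature miRNAs of RefSeq (GRCm38.p6), written 5′ to 3′ with bases 2 to 8 in capitals, and all 9 members had an entry. The rows named miR-195-5p and miR-497-5p were matched to the entries miR-195a-5p and miR-497a-5p.
mmu-miR-15a-5p: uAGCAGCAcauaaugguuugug
mmu-miR-15b-5p: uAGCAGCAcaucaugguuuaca
mmu-miR-16-5p: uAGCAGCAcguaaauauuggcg
mmu-miR-195-5p: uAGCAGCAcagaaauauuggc
mmu-miR-497-5p: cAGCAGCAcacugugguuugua
mmu-miR-322-5p: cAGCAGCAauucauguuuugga
mmu-miR-503-5p: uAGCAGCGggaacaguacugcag

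All 5 family guides had the same 7 bases in capitals. Among the 584 of 778 rows with a reference sequence, 1 other row, miR-322-5p, had those 7 bases, and 1 other row, miR-503-5p, shared bases 2 to 7 and differed at base 8. Outside the seed the closest guides came from different loci. miR-15a-5p and miR-15b-5p differed at 4 of 22 positions, of which 1, position 12 from the 5′ end, was within the first 18 bases. miR-16-5p and miR-195-5p differed at 2 of 21 positions, 10 and 11. How reads matching several miRNAs were counted is not given in the sources used here, and no member shared all its values with another row.

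The 3p strands are shown because they have other seeds, and because they tell the miR-16 hairpins apart where the 5p strand cannot.
mmu-miR-15a-3p: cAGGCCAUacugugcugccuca
mmu-miR-16-1-3p: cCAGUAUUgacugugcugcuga
mmu-miR-15b-3p: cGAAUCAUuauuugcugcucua
mmu-miR-16-2-3p: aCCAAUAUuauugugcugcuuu

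By exact match to the NCBIM37 genome, miR-15a-5p lay at chr14:62250912-62250933 and miR-16-1-3p at chr14:62250731-62250752 on the minus strand, inside an intron of Dleu2. miR-15b-5p lay at chr3:68813697-68813718 and miR-16-2-3p at chr3:68813882-68813903 on the plus strand, inside an intron of Smc4, which encodes a condensin subunit. miR-16-5p matched at both loci, at chr14:62250773-62250794 and chr3:68813840-68813861. miR-497-5p and miR-195-5p lay at chr11:70048232-70048253 and chr11:70048564-70048584 on the plus strand, where no other annotated gene (GENCODE vM1) overlapped them. The read count of miR-16-5p therefore belongs to both miR-15/miR-16 loci together, and the reads cannot be divided between them.

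Levels are given in RPM, the number of reads scaled to a library of 1000000. The totals, inferred from the values, ran from 16478281 to 20169254 reads, so that 1 read was worth 0.0496 to 0.0607 RPM. After TGF-β1 the common strands of the 15a/16-1 and 15b/16-2 loci were lower, at 48.1% to 59.9% of their Control means for the 3 abundant guides, while the sparse strands miR-195-5p and miR-497-5p were not. Of the 9 members, 6 had enough reads for the test across all 408 miRNAs that passed the filter. Of these 6, 5 were lower and 0 higher in TGF-β1 at a limma adjusted p under 0.05, where 31.9% of all tested miRNAs were lower and 17.4% higher. The looser cut of an unadjusted p under 0.05 in the same limma fit added no member to these 5. The share of all tested miRNAs at that cut is not given here. In edgeR and DESeq2, 0 members were higher at an adjusted p under 0.05. Of all 408 tested miRNAs, 69 were higher in edgeR on library totals, 85 in edgeR with TMM and 75 in DESeq2. The median log2 change was -0.77 over the 6 tested members and -0.17 over all tested miRNAs.

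**Figure D1:**
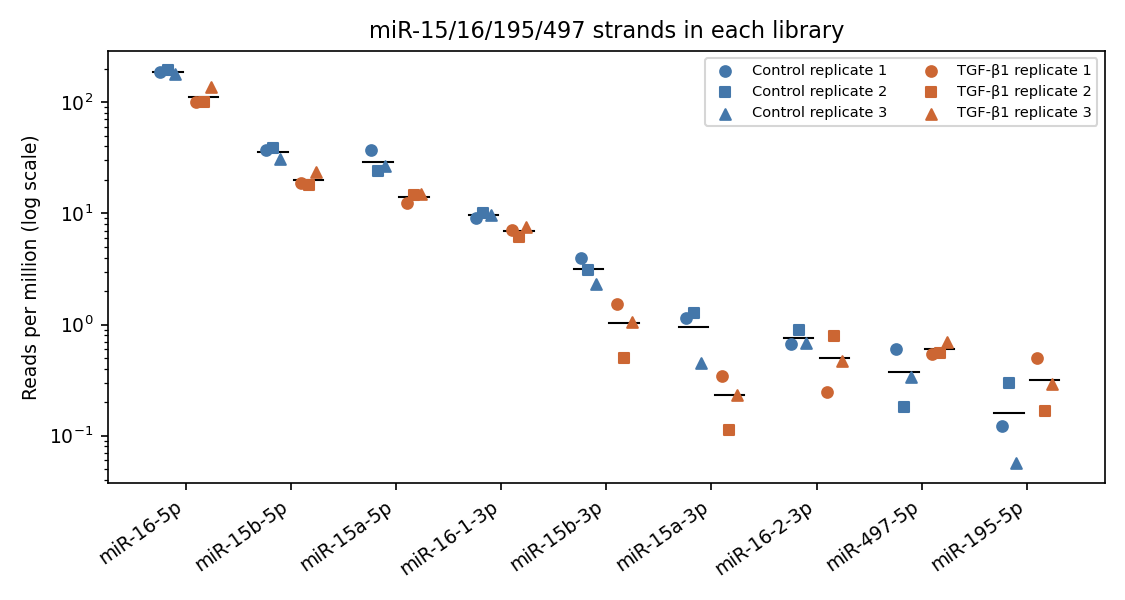
Level of each of the 9 family strands in each of the 6 libraries, in RPM on a log axis, with 3 Control libraries in blue, 3 TGF-β1 libraries in orange, a symbol for each replicate and a black line at each group mean. The 5 highest strands and miR-15a-3p have every TGF-β1 library below every Control library, while miR-16-2-3p, miR-497-5p and miR-195-5p overlap.

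mmu-miR-16-5p, the guide from both loci, was the most abundant member and ranked 65 of 778 by its Control mean. It measured 188.9, 193.4 and 178.7 RPM in Control replicates 1 to 3, and 100.4, 99.6 and 136.1 RPM in TGF-β1 replicates 1 to 3. All TGF-β1 libraries lay below all Control libraries, and TGF-β1 replicate 3 stood nearest to them. The mean fell from 187.0 ± 7.53 to 112.0 ± 20.8 RPM (SD, n = 3 each), and the log2 change on the log2(RPM + 1) scale was -0.75 ± 0.14 (SE), with a limma adjusted p of 0.00345.

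At the 15a/16-1 locus, the guide mmu-miR-15a-5p measured 37.1, 23.9 and 26.5 RPM in Control and 12.4, 14.6 and 15.04 RPM in TGF-β1. Control replicate 1 was the highest library, and the groups did not overlap. The mean fell from 29.2 ± 7.03 to 14.02 ± 1.38 RPM (SD, n = 3 per group). The log2 change was -0.99 ± 0.18 (SE), with a limma adjusted p of 0.00348.

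The opposite strand, miR-15a-3p, had 19, 21 and 8 reads in Control and 7, 2 and 4 reads in TGF-β1, which is 0.454 to 1.26 RPM against 0.112 to 0.347 RPM. It did not pass the filter on low counts. Summed reads per library total in TGF-β1 were 0.249 times those in Control, with a 95% exact interval of 0.124 to 0.467 that covers counting error only. In an edgeR quasi-likelihood fit without a filter, chosen after the data were seen, the log2 change of miR-15a-3p was -1.99 with an adjusted p of 0.00769, where that fit called 16.1% of 778 miRNAs lower. The planned limma fit without a filter gave -0.65 on the log2(RPM + 1) scale (adjusted p = 0.0261). Without Control replicate 2 this call was lost, at a log2 change of -1.74 and an adjusted p of 0.0823 in the same edgeR fit.

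miR-16-1-3p, which is made only by the miR-16 hairpin of this locus, measured 9.16, 10.0 and 9.76 RPM in Control and 7.04, 6.14 and 7.49 RPM in TGF-β1. The libraries did not overlap, yet the difference was the smallest of the members that passed. The mean went from 9.64 ± 0.435 to 6.89 ± 0.688 RPM (SD, n = 3 per group). The log2 change was -0.43 ± 0.13 (SE), with a limma adjusted p of 0.0268. This call was lost under all 4 other scalings of the libraries (limma adjusted p = 0.0985 to 0.177), and when any library but TGF-β1 replicate 3 was left out (limma adjusted p = 0.0501 to 0.0920). It was lost as well with the replicate number as a block (limma adjusted p = 0.0886) and in limma without a filter (adjusted p = 0.0514). So it was in edgeR with TMM (adjusted p = 0.109), edgeR on library totals without a filter (0.0853) and DESeq2 (0.388). It held in edgeR on library totals with the filter (adjusted p = 0.0294). In limma it held with 0.1 or 10 added in place of 1 and at a mean of at least 50 reads (adjusted p = 0.0207 to 0.0309).

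At the 15b/16-2 locus, the guide mmu-miR-15b-5p measured 37.1, 39.1 and 30.7 RPM in Control and 18.7, 18.1 and 23.5 RPM in TGF-β1. As for miR-16-5p, TGF-β1 replicate 3 was the highest treated library and still lay under every Control library. The mean fell from 35.6 ± 4.38 to 20.1 ± 2.94 RPM (SD, n = 3 per group). The log2 change was -0.80 ± 0.15 (SE), with a limma adjusted p of 0.00412.

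The opposite strand, mmu-miR-15b-3p, measured 3.94, 3.12 and 2.33 RPM in Control and 1.54, 0.502 and 1.05 RPM in TGF-β1. It was the 1 tested member past an absolute log2 change of 1, where 7.84% of all tested miRNAs were lower and 4.41% higher by that rule. The mean fell from 3.13 ± 0.809 to 1.03 ± 0.518 RPM (SD, n = 3 each), which is 32.9% of Control. Its log2 change was -1.04 ± 0.23 (SE), with a limma adjusted p of 0.00703, while the log2 ratio of the group means, which has no pseudocount, was -1.60, and the log2 change with 10 added in place of 1 was -0.25. Without Control replicate 1 no member passed the fold rule, and without Control replicate 2, Control replicate 3 or TGF-β1 replicate 3 there were 2.

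miR-16-2-3p, made only by the miR-16 hairpin of this locus, measured 0.668, 0.899 and 0.681 RPM in Control and 0.248, 0.782 and 0.468 RPM in TGF-β1. The groups overlapped at TGF-β1 replicate 2. The log2 change was -0.24 ± 0.15 (SE), with a 95% interval of -0.59 to 0.12 and a limma adjusted p of 0.245. It was -0.11 without TGF-β1 replicate 1, -0.37 without TGF-β1 replicate 2 (limma adjusted p = 0.0789), -0.59 with 0.1 added in place of 1 and -0.60 in edgeR on library totals (adjusted p = 0.294). With 38 reads in all Control libraries and 27 in all TGF-β1 libraries, the ratio of summed reads was 0.654 (95% exact interval 0.384 to 1.10), so a fall of the size seen in miR-16-1-3p was not excluded by these counts.

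The guides of the miR-195 and miR-497 locus were near the limit of detection. miR-195-5p had 2, 5 and 1 reads in Control and 10, 3 and 5 reads in TGF-β1, which is 0.0567 to 0.2997 RPM and 0.167 to 0.496 RPM. mmu-miR-497-5p had 10, 3 and 6 reads in Control and 11, 10 and 12 reads in TGF-β1. For both strands the TGF-β1 libraries overlapped the Control libraries. The ratio of summed reads, TGF-β1 over Control, was 2.07 for miR-195-5p (95% exact interval 0.857 to 5.50) and 1.60 for miR-497-5p (0.883 to 2.98). In the edgeR fit without a filter, which called 9.38% of 778 miRNAs higher, the log2 changes were 1.003 and 0.67, each with an adjusted p of 0.347. The planned limma fit without a filter gave 0.18 and 0.23 (adjusted p = 0.281 and 0.247). Neither strand was called higher or lower in these fits, which does not show that they were unchanged. In edgeR, miR-195-5p ran from 0.52 without TGF-β1 replicate 1 to 1.79 without Control replicate 2, and miR-497-5p from 0.34 without Control replicate 2 to 1.18 without Control replicate 1. The level of miR-195-5p, which differs from miR-16-5p at 2 positions, was 0.0317% to 0.155% of that of miR-16-5p in Control and 0.168% to 0.494% in TGF-β1, and the part of reads misassigned between them was not tested.

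Of the 6 tested members, 5 had every TGF-β1 library below every Control library, where 36.0% of all tested miRNAs did. The untested miR-15a-3p did so as well, on few reads. The 4 members miR-16-5p, miR-15a-5p, miR-15b-5p and miR-15b-3p passed under each of the 5 scalings, and miR-16-1-3p under the library total alone. The other scalings called 25.7% (TMM), 22.3% (median of ratios), 25.5% (upper quartile) and 25.5% (sum of the listed rows) of all tested miRNAs lower. Another scaling moves the whole table: the median over the 408 miRNAs, a log2 change of -0.17 on library totals, was -0.07 with TMM and -0.02 with median of ratios. Measured from that median, the log2 change of miR-15a-5p was -0.81, -0.77 and -0.76 on library totals, TMM and median of ratios, and that of miR-16-5p was -0.57, -0.53 and -0.51.

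**Figure D2:**
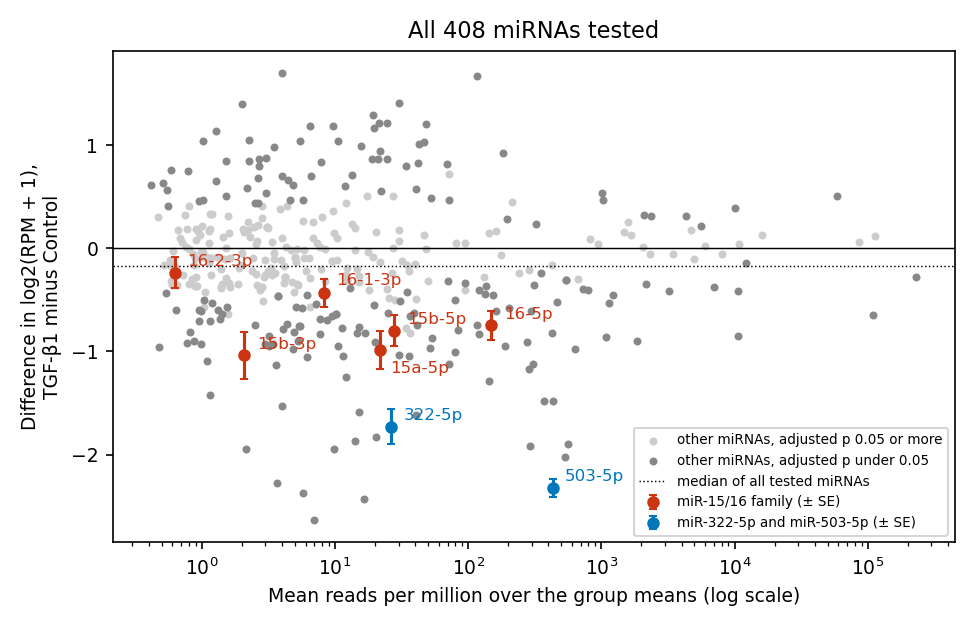
Difference in log2(RPM + 1), TGF-β1 minus Control, against mean abundance in RPM (log axis) for all 408 miRNAs tested, with the 6 tested family strands in red and miR-322-5p and miR-503-5p in blue, each with its SE. The family strands lie between -1.04 and -0.24, all below the dotted median of -0.17, and above miR-322-5p at -1.73 and miR-503-5p at -2.32.

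**Figure D3:**
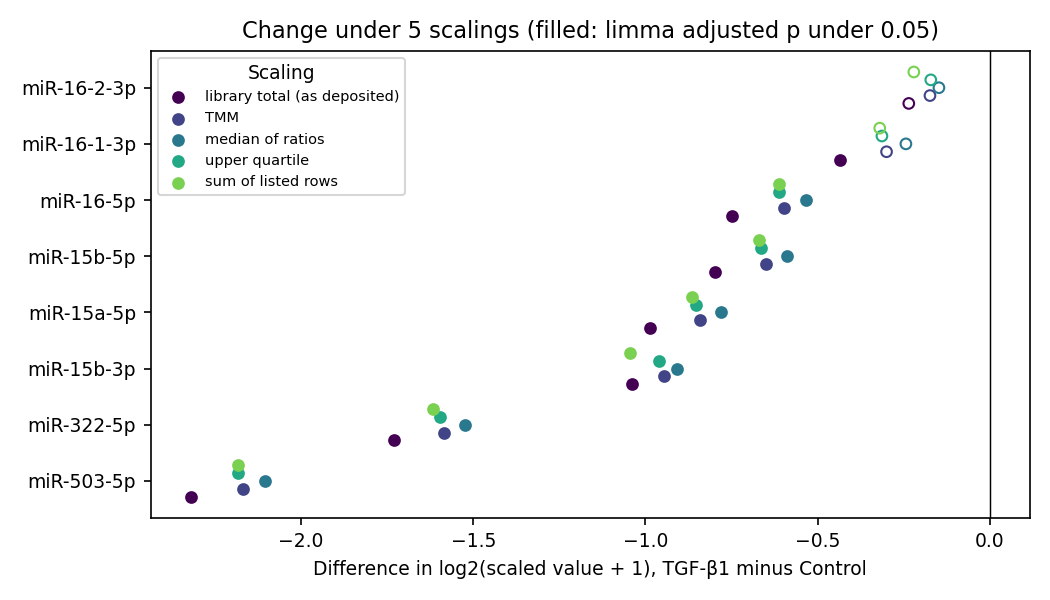
Log2 change, TGF-β1 minus Control, of 6 family strands and 2 seed relatives under 5 scalings of the libraries, with filled circles where the limma adjusted p was under 0.05. The sign is negative for each strand under each scaling, and miR-16-1-3p is filled on the library total only.

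The relatives outside the family had steeper differences. miR-322-5p was the other row with the full seed among those with a reference sequence. It went from 41.1 ± 5.99 to 11.7 ± 2.07 RPM (SD, n = 3 per group), and its log2 change was -1.73 ± 0.17 (SE) with a limma adjusted p of 0.000206. In these libraries it was the lesser strand of its hairpin, at 0.0619 to 0.0674 times miR-322-3p in Control and 0.0384 to 0.0605 times in TGF-β1. miR-503-5p, which shares bases 2 to 7 and is made from the same X chromosome cluster as miR-322, went from 717.5 ± 31.4 to 142.9 ± 8.76 RPM (SD, n = 3 per group), and its log2 change was -2.32 ± 0.09 (SE) with a limma adjusted p of 2.67e-06. Each was tested against miR-16-5p in the same library, which removes any scaling common to the library. The log2 change relative to miR-16-5p was -0.98 ± 0.20 for miR-322-5p (SE, limma adjusted p = 0.000510) and -1.57 ± 0.18 for miR-503-5p (SE, limma adjusted p = 1.56e-06), so both fell beyond miR-16-5p.

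The same test was made for the family members, among 407 miRNAs of which 54.3% were higher and 4.91% lower relative to miR-16-5p. The guides of both loci were not told apart from it. miR-15b-5p differed by -0.05 (95% interval -0.45 to 0.36, limma adjusted p = 0.833) and miR-15a-5p by -0.24 (95% interval -0.69 to 0.22, limma adjusted p = 0.352), which ran from -0.06 without Control replicate 1 to -0.39 without Control replicate 2. These intervals leave room for differences of up to -0.69 in miR-15a-5p, so equal change was not shown.

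The 3p strands from both loci also had intervals that reached or came near 0 relative to miR-16-5p. miR-16-1-3p differed by 0.31 (95% interval -0.12 to 0.75, limma adjusted p = 0.193), and passed without TGF-β1 replicate 3 (0.41, limma adjusted p = 0.0376) or with 10 added in place of 1 (0.49, limma adjusted p = 0.00481). miR-15b-3p differed by -0.29 (95% interval -0.79 to 0.21, limma adjusted p = 0.297), and by -0.82 in edgeR with the miR-16-5p reads as offset (adjusted p = 0.0330), a fit chosen after the data were seen. That edgeR call was lost without Control replicate 1 or 2 or TGF-β1 replicate 2 or 3 (adjusted p = 0.217 to 0.303), and limma gained it without TGF-β1 replicate 1 (-0.54, adjusted p = 0.0454). miR-16-2-3p differed by 0.51 with a limma adjusted p of 0.0471, but by 0.16 with an adjusted p of 0.830 in that edgeR fit, and by 0.16 with a limma adjusted p of 0.746 when 0.1 was added in place of 1. The limma call was lost as well with the replicate block (adjusted p = 0.0674) and without Control replicate 1, 2 or 3 or TGF-β1 replicate 2 (adjusted p = 0.0907 to 0.250). In that fit, which called 27.5% of 777 miRNAs higher and 4.12% lower, miR-497-5p was higher relative to miR-16-5p, at 1.40 (edgeR adjusted p = 0.0237). This was lost without Control replicate 2 or 3 or TGF-β1 replicate 2 or 3 (edgeR adjusted p = 0.0543 to 0.146). miR-195-5p was at 1.74 (edgeR adjusted p = 0.0551) and miR-15a-3p at -1.24 (edgeR adjusted p = 0.0547), neither past the threshold with all libraries. miR-195-5p passed without TGF-β1 replicate 2 (1.996, edgeR adjusted p = 0.0446), and miR-15a-3p without Control replicate 3 (-1.55, edgeR adjusted p = 0.0328) or TGF-β1 replicate 1 (-1.76, edgeR adjusted p = 0.0118).

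**Figure D4:**
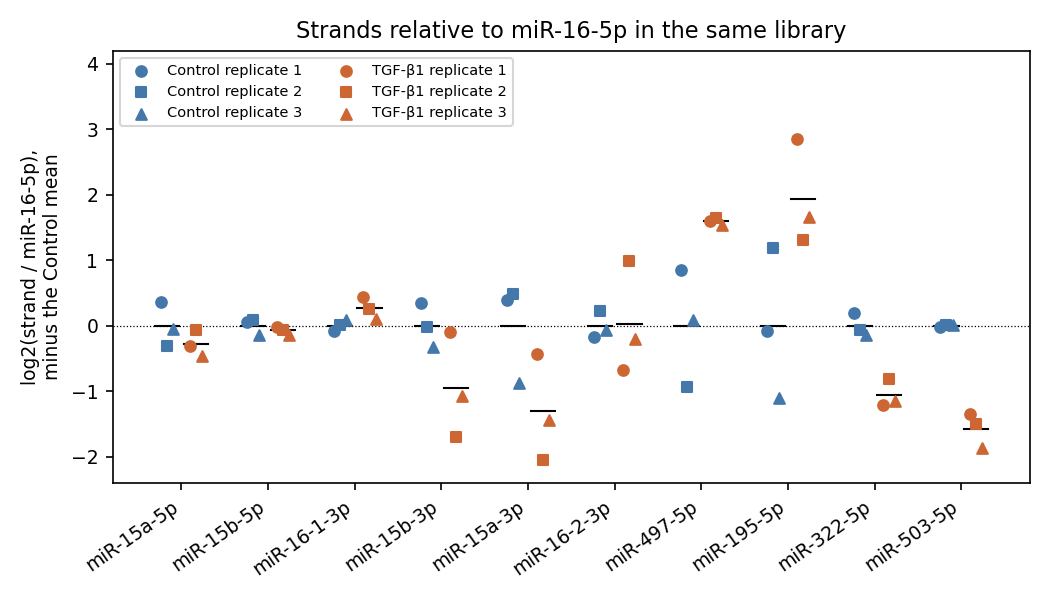
Log2 ratio of each strand to miR-16-5p in the same library, less its Control mean, for the 8 other family strands and the 2 seed relatives, with blue Control and orange TGF-β1 symbols by replicate and a black line at each group mean. miR-15a-5p, miR-15b-5p and miR-16-1-3p stay near 0, miR-322-5p and miR-503-5p lie below, and the sparse strands miR-15a-3p, miR-16-2-3p, miR-497-5p and miR-195-5p are spread widely.

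The arms of a hairpin could be compared for miR-15b alone, as miR-16-5p comes from both miR-16 hairpins and miR-15a-3p did not pass the filter. The guide exceeded the opposite strand by 9.40 to 13.2 times in Control and by 12.2 to 36.0 times in TGF-β1, and the groups overlapped at TGF-β1 replicate 1. The log2 change of the ratio was 0.24 ± 0.26 (SE, limma adjusted p = 0.525), among 103 hairpins of which 13.6% had a higher and 5.83% a lower 5p share. It was 0.77 with 0.1 added in place of 1 (limma adjusted p = 0.202) and 0.75 in edgeR (adjusted p = 0.283), and ran from 0.11 without TGF-β1 replicate 2 to 0.46 without TGF-β1 replicate 1. None of these values passed, and the ratio turned to -0.35 with 10 added in place of 1 (limma adjusted p = 0.0470).

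As a sum, the 9 members made up 278.7, 272.2 and 249.6 RPM in Control and 141.8, 140.6 and 184.8 RPM in TGF-β1. The mean went from 266.8 ± 15.3 to 155.7 ± 25.2 RPM (SD, n = 3 each), 58.4% of Control, and as a share of the listed reads from 0.0335% to 0.0215%. The shares of the 3 abundant guides among the family guides overlapped between the groups. miR-16-5p was 74.2% ± 2.25 of the family guides in Control and 76.0% ± 1.33 in TGF-β1, miR-15b-5p was 14.1% ± 1.11 and 13.7% ± 0.392, and miR-15a-5p was 11.5% ± 2.41 and 9.63% ± 1.21 (SD, n = 3 each). The shares of the sparse guides did not overlap, at 0.0700% to 0.230% and 0.400% to 0.420% for miR-497-5p and at 0.0240% to 0.117% and 0.126% to 0.374% for miR-195-5p. Their levels in RPM did overlap, on 3 to 12 reads a library for miR-497-5p and 1 to 10 for miR-195-5p. The sum of the family guides, by which the shares are divided, was 58.3% of its Control mean in TGF-β1. All these shares are given without a test.

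The pool of 5p strands that share bases 2 to 7 among rows with a reference sequence, with miR-322-5p and miR-503-5p included, changed in make-up. It summed to 959.8 to 1047.9 RPM in Control and 279.6 to 331.8 RPM in TGF-β1, and its mean went from 1010.9 ± 45.7 to 301.7 ± 27.0 RPM (SD, n = 3 each). miR-503-5p measured 3.84 ± 0.0514 times miR-16-5p in Control and 1.30 ± 0.234 times in TGF-β1 (SD, n = 3 each). The family guides were 24.5% to 25.7% of the pool in Control and 45.1% to 52.9% in TGF-β1, so that their share was larger while their level was lower.

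**Figure D5:**
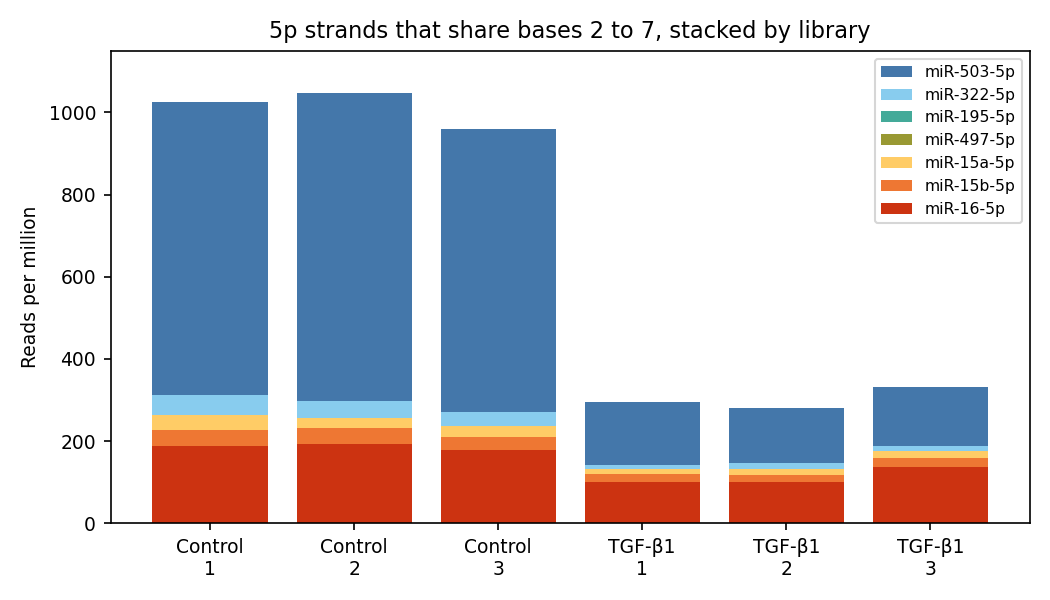
Stacked levels in RPM, from 0, of the 7 listed 5p strands that share bases 2 to 7, in each of the 6 libraries. The stack is 959.8 to 1047.9 RPM in Control and 279.6 to 331.8 RPM in TGF-β1, and most of the difference is the blue block of miR-503-5p, while miR-195-5p and miR-497-5p are too low to be seen.

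The miRNAs outside the family whose levels followed each member most closely over the 6 libraries are given as a description, by Pearson's r of log2(RPM + 1), which the difference between the groups can set by itself. For miR-16-5p they were miR-30c-5p (r = 0.990), miR-10b-5p (0.985) and miR-5620-5p (0.981). For miR-15b-5p they were miR-100-5p (r = 0.998), miR-30c-5p (0.987) and miR-106b-5p (0.985), so miR-30c-5p stood on both lists. For miR-15a-5p they were miR-504-5p (r = 0.998), miR-26b-5p (0.998) and miR-199a-3p (0.988), so no name was shared with miR-15b-5p. For miR-16-1-3p they were miR-362-3p (r = 0.996), miR-30a-3p (0.993) and miR-222-3p (0.990), and for miR-15b-3p miR-187-3p (0.995), miR-324-3p (0.987) and miR-674-5p (0.985). miR-16-2-3p had miR-301b-3p (r = 0.976), miR-1970 (0.906) and miR-1843b-3p (0.817). Within the family, r over the 6 libraries was 0.98 between miR-16-5p and miR-15b-5p and 0.89 between miR-16-5p and miR-15a-5p.

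Other miRNAs known to repress cyclins or cyclin-dependent kinases moved in both directions. Of 17 listed, all tested, 9 were lower and 2 higher at a limma adjusted p under 0.05, beside 31.9% and 17.4% of all tested miRNAs, with a median log2 change of -0.28. Beside miR-322-5p and miR-503-5p, miR-26a-5p fell by 1.48 on the log2 scale (limma adjusted p = 4.17e-05) and let-7i-5p fell by 0.85 (0.00166). let-7b-5p (-0.64), miR-449a-5p (-0.61), miR-26b-5p (-0.53), miR-124-3p (-0.50) and let-7c-5p (-0.28) were also lower. let-7e-5p was higher by 0.50 and miR-34c-5p, a target gene of p53, by 0.31. Under all 5 scalings 6 of the 9 stayed past the threshold in the same direction, as did both higher ones, and no call changed sign. let-7a-5p, let-7d-5p, let-7f-5p, let-7g-5p, miR-34a-5p and miR-34b-5p did not pass, with log2 changes from -0.22 to 0.13.

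Markers of other cells and the share of listed reads differed between the groups as well, and their part in the family's difference was not tested. Mesenchymal and contractile markers summed to 17388 to 18872 RPM in Control and 17965 to 21755 RPM in TGF-β1, most of it miR-21-5p. Of the 7 tested, miR-145-5p was higher (log2 change 0.92, limma adjusted p = 0.00235), while miR-199a-5p (-0.95, 0.00785) and miR-199a-3p (-0.31, 0.0219) were lower. The next most abundant after miR-21-5p, miR-143-3p, averaged 2029 RPM in Control and 2052 RPM in TGF-β1 (log2 change 0.01, limma adjusted p = 0.945). Red blood cells are rich in miR-16-5p. The 3 erythroid strands summed to 4.43 to 4.98 RPM in Control and 2.85 to 3.16 RPM in TGF-β1. Most of that sum was miR-486-5p, the 1 erythroid strand tested, which was lower (log2 change -0.47, limma adjusted p = 0.0146). The erythroid miR-451 was at 0.114 to 0.360 RPM in Control and 0 to 0.0585 RPM in TGF-β1, and miR-144-3p was at 0 in 5 of 6 libraries. The 5 epithelial strands of the miR-200 family summed to 22.2 to 25.4 RPM in Control and 1.67 to 2.53 RPM in TGF-β1, with 3 of 3 tested lower and miR-141-3p and miR-200c-3p at or near 0. Strands of other blood cells and strands of endothelium, each list taken alone, summed to at most 0.300 RPM in any library. Skeletal muscle strands summed to 3440 to 3646 RPM and 3285 to 3465 RPM, nearly all miR-206-3p, neuronal ones to 2.06 to 2.40 RPM and 1.40 to 1.93 RPM, and the hepatocyte miR-122-5p was at 24.2 to 27.3 RPM and 13.1 to 13.9 RPM. Of each library's reads, the listed miRNAs took 79.6% ± 0.142 in Control and 72.3% ± 0.752 in TGF-β1 (SD, n = 3 each, exact two-sided permutation p = 0.1, the smallest that 3 against 3 can give), which is -0.14 on the log2 scale.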

How the data were processed

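Mature miRNAs were measured by small RNA sequencing in 3 Control and 3 TGF-β1 libraries. Per the methods of the study, reads were trimmed, those under 18 nt were removed, and the rest were compared with miRBase version 17 by Bowtie, whose version and settings are not given in the sources used here. The deposited table holds 778 rows in a unit that the authors call TPM, which is RPM here (reads scaled to a library of 1000000). Library totals were inferred as the numbers that turn the values into whole reads, and which reads they count is not given in the sources used here. Whole reads were recovered in this way, with 100% of values whole within 0.002. As planned for normalized values, limma was the main test, and count tests became alternatives. The table's 6 columns were all used.

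miRNAs were kept by filterByExpr of edgeR 4.0.16 at a minimum count of 10 and fitted on log2(RPM + 1), which understates the change of low miRNAs, with limma 3.58.1 (R 4.3.3), a trended prior and group as the only term. The Benjamini-Hochberg method adjusted over all 408, and a call was an adjusted p under 0.05. Calls past an absolute log2 change of 1 were counted separately. The arm ratio and the change relative to miR-16-5p were fitted likewise. Exact tests used scipy 1.17.1. The scripts were tested on simulated reads. The members, lists and tests were chosen with earlier results of these data known. Named are all members, seed relatives, the cell cycle list and the 3 closest patterns per tested member.

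The alternatives were 4 scalings (TMM, median of ratios, upper quartile, sum of the listed rows), pseudocounts of 0.1 and 10, a minimum mean of 50 reads, no filter, a replicate block, each library left out, edgeR, and DESeq2 1.42.0. The edgeR fits without a filter and those with miR-16-5p or the other arm as offset were added after seeing the data. Chi-square per degree of freedom between replicates was 43.6 to 135.9, and none was counted as a duplicate. Intervals and limits from reads cover counting error only, as PCR reads are not independent molecules.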

Additional observations from a re-analysis of the deposited data

Results flagged for a closer look

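In Control libraries 20.4% ± 0.142 of reads lay outside the listed miRNAs, against 27.7% ± 0.752 in TGF-β1 (SD, n = 3 each). The difference of 7.32 percentage points lies in reads that no row of the table describes, and the share was larger in every TGF-β1 library than in every Control library. The totals behind these shares were inferred from the values, and which reads they count is not known. These reads enter the total by which each family member was divided.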

How the results depend on the processing

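miR-16-5p, miR-15a-5p, miR-15b-5p and miR-15b-3p kept their direction and their limma, edgeR or DESeq2 call in every alternative that tested them, and miR-16-1-3p did not, as given above. Members past the fold rule, 1 by limma on library totals, were 0 with TMM, median of ratios, upper quartile, a pseudocount of 10 or a mean of at least 50 reads, and 2 with a pseudocount of 0.1 or edgeR on library totals, with 0 to 2 over the leave-outs. Members lower at any fold numbered 4 to 5 throughout, but they were not always the same members. Without a filter, miR-15a-3p was called in limma (adjusted p = 0.0261) and in edgeR on library totals (adjusted p = 0.00769). In the same fits miR-16-1-3p was not called (limma adjusted p = 0.0514, edgeR adjusted p = 0.0853). Over all miRNAs past the fold rule, the 18 higher became 31 with median of ratios, 29 scaled to the listed rows, 32 with a pseudocount of 0.1, 2 with 10, 32 with edgeR on library totals, 45 with edgeR and TMM and 46 with DESeq2. The 32 lower became 54 with a pseudocount of 0.1 and with edgeR on library totals, and 15 with 10. At any fold, DESeq2 gave 72 lower in place of 130, and the split was 83 higher and 105 lower with TMM, and by median of ratios 97 and 91, in place of 71 and 130. Of the cell cycle list 5 were higher with median of ratios or the listed rows in place of 2, and 5 lower with DESeq2 in place of 9.

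The arm ratio rose in 14 of 103 hairpins, 23 with a pseudocount of 10, 9 with edgeR and 3 to 15 over the leave-outs (3 without Control replicate 1 or TGF-β1 replicate 2, 4 without Control replicate 2, 8 without Control replicate 3, 9 without TGF-β1 replicate 3), and fell in 6, 2 with 0.1, 14 with 10, 3 at a mean of at least 50 reads, 1 with edgeR and 1 to 4 over the leave-outs (1 without Control replicate 1 or TGF-β1 replicate 2, 2 without Control replicate 2 or 3). For miR-15b it reversed to -0.35 when 10 was added in place of 1 (limma adjusted p = 0.0470). Relative to miR-16-5p, the 221 higher became 136 at a mean of at least 50 reads, where fewer miRNAs were tested, and the 20 lower became 13 with a pseudocount of 10 and 18 to 31 over the leave-outs, 31 without TGF-β1 replicate 1. With a pseudocount of 10 the relative changes reversed to 0.011 for miR-15a-5p, 0.10 for miR-15b-5p and 0.45 for miR-15b-3p (limma adjusted p = 0.00417), and that of miR-16-2-3p to -0.42 in edgeR without TGF-β1 replicate 2. The cause was not tested for these changes.

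Same-numbered libraries did not deviate together (r = -0.08, -0.21 and -0.34 over all tested miRNAs). With 3 libraries a group, these values cannot show whether the libraries were paired. The replicate block cost the call of miR-16-1-3p among the members and that of miR-16-2-3p relative to miR-16-5p, and left 4 higher and 2 lower arm ratios. The number of reads limits miR-15a-3p, miR-16-2-3p, miR-195-5p and miR-497-5p, and 3 libraries a group limit all tests.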
